A study of Mus musculus with 18 samples.

Results

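Elastic fibres and their microfibrils were followed through 10 genes, Eln, Fbn1, Fbn2, Mfap4, Mfap5, Fbln1, Fbln2, Fbln5, Efemp1 and Efemp2. These genes were chosen by name, with earlier results of these data known. They are 10 of the 27179 genes listed for 18 RNA sequencing libraries of mouse bone marrow MSCs, stromal cells that adhere to plastic when flushed marrow is cultured. Young MSCs came from C57BL6 mice of 6 weeks and old MSCs from C57BL6 mice of 18 to 24 months, all male, with 6 libraries each. The third group, 6 libraries of rejuvenated old MSCs, came from old MSCs that had shared a well with young MSCs for 7 days across a Transwell membrane with 0.4 µm pores, which soluble factors cross and cells do not. Old MSCs kept on their own and rejuvenated old MSCs were set up at 100000 cells per replicate, and all groups were read at day 7. The 18 libraries include none of old MSCs that faced a second layer of old MSCs. The age of the facing layer and its presence therefore cannot be told apart. The labels call the replicates biological but do not say that each came from its own mouse, so the p-values measure the spread between cultures.

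An elastic fibre is a core of cross-linked elastin laid down on a scaffold of fibrillin microfibrils, and it gives vessels, lung, skin and ligaments their recoil. Fibulins and microfibril-associated proteins join elastin to the scaffold, bring lysyl oxidases to it and tie it to cells. Microfibrils also exist without elastin, and there they hold latent TGF-β and BMPs in the matrix.

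RefSeq promoter sequences (GRCm38.p6) were found for 6 of the 10 genes: Fbn1, Fbln1, Fbln2, Fbln5, Efemp1 and Efemp2. None was used for Eln, Fbn2, Mfap4 and Mfap5. The sequences upstream of the annotated gene start are shown for 4 genes with different patterns over the groups: Efemp1 and Fbn1, which were higher in old than in young MSCs, Fbln1, which was lower, and Fbln5, which stood apart in rejuvenated old MSCs. Capitals mark the motifs searched for, on either strand, and all are written 5′ to 3′ on the strand of the gene.
Efemp1 (chr11:28852955-28853153, plus strand, 199 bases): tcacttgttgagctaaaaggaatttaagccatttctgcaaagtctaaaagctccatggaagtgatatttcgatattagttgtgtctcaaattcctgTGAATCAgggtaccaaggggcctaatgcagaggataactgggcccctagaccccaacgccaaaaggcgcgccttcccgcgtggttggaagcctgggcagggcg
Fbn1 (chr2:125506486-125506688, minus strand, 203 bases): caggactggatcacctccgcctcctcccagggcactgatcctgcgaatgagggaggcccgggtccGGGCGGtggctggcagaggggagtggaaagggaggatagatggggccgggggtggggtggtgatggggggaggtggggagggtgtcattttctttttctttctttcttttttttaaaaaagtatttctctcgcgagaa
Fbln1 (chr15:85205699-85205948, plus strand, 250 bases): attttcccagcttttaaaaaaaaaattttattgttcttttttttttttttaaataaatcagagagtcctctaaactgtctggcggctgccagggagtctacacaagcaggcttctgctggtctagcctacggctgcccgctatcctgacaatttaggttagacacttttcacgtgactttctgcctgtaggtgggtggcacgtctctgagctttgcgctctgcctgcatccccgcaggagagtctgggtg
Fbln5 (chr12:101819120-101819369, minus strand, 250 bases): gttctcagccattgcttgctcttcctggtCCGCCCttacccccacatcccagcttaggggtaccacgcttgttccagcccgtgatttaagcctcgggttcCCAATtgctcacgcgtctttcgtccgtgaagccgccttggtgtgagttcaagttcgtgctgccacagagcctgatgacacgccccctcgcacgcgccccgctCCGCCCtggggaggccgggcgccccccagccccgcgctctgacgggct
The motifs were the TATA box (TATAAA), the GC box (GGGCGG), the CCAAT box (CCAAT), the AP-1 motif (TGANTCA), the TEAD motif (GGAATG) and the SMAD motif (GTCTAGAC), searched in windows of 250 bases before to 50 after each start, and overlapping matches were each counted. A GC box lay in at least 1 window of each of the 6 genes, and in 35.7% of all 32851 windows searched. These figures are not alike, since some of the genes had several windows, Efemp2 as many as 3. The Fbln1 window shown in part above and the Fbln5 window that is not shown held no GC box. GC content of the windows of these genes ran from 48.7% to 78.3%, against a median of 52.7% over all windows. The Efemp1 window also held the AP-1 match shown in capitals, as 7.81% of all windows did, and the first Fbln5 window the CCAAT match shown, as 37.4% did. No TATA box, TEAD or SMAD match (13.6%, 14.7% and 0.213% of all windows) lay in these windows. These matches are letters in a window and say nothing of binding. Their part in the differences between the groups was not tested.

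The libraries held 22936251 to 29559194 reads on genes, and their values are normalized counts, the reads of a gene divided by 1 size factor per library. All 45 pairs of libraries within a group differed by more than sampling noise. Genes averaging 10 or more normalized counts across the 18 libraries, 14353 in all, entered limma tests on log2(normalized count + 1), and log2 fold changes below are on that scale. A gene was called at a Benjamini-Hochberg adjusted p under 0.05. The stromal label was checked against 10 markers, of which Thy1 had at most 3 reads in each old library. Marker lists of other cell types separated the groups as well. The summed level of 10 macrophage markers was 917.5 to 1034 normalized counts in young MSCs, where 6 of 10, Ptprc, Adgre1, Itgam, C1qa, C1qb and Tyrobp, had at most 3 reads in any library, against 13745 to 17416 in old and 13762 to 16766 in rejuvenated old MSCs. All 10 were called lower in young than in old MSCs, whereas co-culture of the old MSCs left 1 called higher and 1 lower. Beside these and the marker counts below, 44.1% of all genes tested were lower and 41.6% higher in young than in old MSCs. After co-culture 21% of all genes tested were higher and 20.6% lower. The summed levels of the markers of 4 further types were also lower in every young than in any old library. They were 46173 to 48909 against 117235 to 129695 normalized counts for smooth muscle and pericytes, 16692 to 19205 against 39026 to 41681 for adipocytes, 1788 to 2069 against 4066 to 4184 for osteoblasts and 588.3 to 650.8 against 2188 to 2535 for chondrocytes. Single markers did not all follow the sums. For smooth muscle and pericytes 6 of 8 were called lower in young than in old MSCs, and 2, Mcam and Cspg4, higher. For chondrocytes 2 of 3 tested were lower and 1, Comp, was higher. All 6 osteoblast markers and all 5 tested adipocyte markers were lower. Adipoq, Plin1 and Cidec, Ibsp, and Acan and Matn1 had at most 3 reads in each young library, and Acan and Matn1 also in each old one. After co-culture the adipocyte sum (43006 to 54489, with 3 markers called higher and 1 lower of 5 tested) and the chondrocyte sum (3322 to 3987, with 2 of 3 higher) lay above all old libraries. The stromal sum did so too (258154 to 311056 against 230977 to 251653, with 3 higher and 4 lower of 10). It ran from 58330 to 71955 in young MSCs. Most of the stromal sum of old MSCs was Cxcl12, with a mean of 197374 normalized counts before co-culture and 238458 after it. Young MSCs averaged 9227 of Cxcl12. Taken singly, 4 of the 10 stromal markers (Ly6a, Thy1, Nt5e and Pdgfra) were called higher in young MSCs, and 6 in old MSCs. The smooth muscle (121531 to 140109), osteoblast (3794 to 4316) and macrophage sums overlapped those of old MSCs. Single markers still changed, with 2 of 8 smooth muscle markers called higher. Of the 6 osteoblast markers 1 was called higher and 4 lower, with a median log2 fold change of -0.80. The endothelial sum stayed between 126.9 and 212.3 in all 3 groups, with Tie1 at 3 reads or fewer throughout. The part of these cell types in the differences below was not tested, and in these bulk libraries fewer cells of a type cannot be told apart from less RNA per cell.

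The genes of the set went both ways with donor age and both ways again with co-culture. Of the 9 genes that could be tested, 8 were called between young and old MSCs, beside 85.7% of all genes tested. Mfap4 averaged 2.21 normalized counts in old and 2.09 in rejuvenated old MSCs, and Fbn2 0.17 in young MSCs. Both met the minimum mean over all libraries only through the groups where they were high, so their calls against young MSCs follow partly from that filter. Mfap4 thus entered the test of rejuvenated old against old MSCs on 13 reads per group, whereas Eln, with 48 and 21, did not. Mfap4, Mfap5, Fbln1 and Fbln2 were higher in young MSCs (41.6% of all genes were), and Fbn1, Fbn2, Efemp1 and Efemp2 were lower (44.1%). Between rejuvenated old and old MSCs 7 were called, beside 41.6% of all genes. Mfap5, Fbln2, Fbln5 and Efemp2 were higher in rejuvenated old MSCs (21% of all genes) and Fbn1, Fbln1 and Efemp1 were lower (20.6%). All 9 differed between rejuvenated old and young MSCs, beside 85.6% of all genes, with 5 higher (44.1%) and 4 lower (41.5%) in rejuvenated old MSCs. Their median absolute log2 fold change was 2.37 between young and old MSCs, against 0.60 for all genes tested. It was 0.39 between rejuvenated old and old MSCs, against 0.15 for all genes. The 3 comparisons share libraries in pairs, so their counts are not independent of each other.

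**Figure D1:**
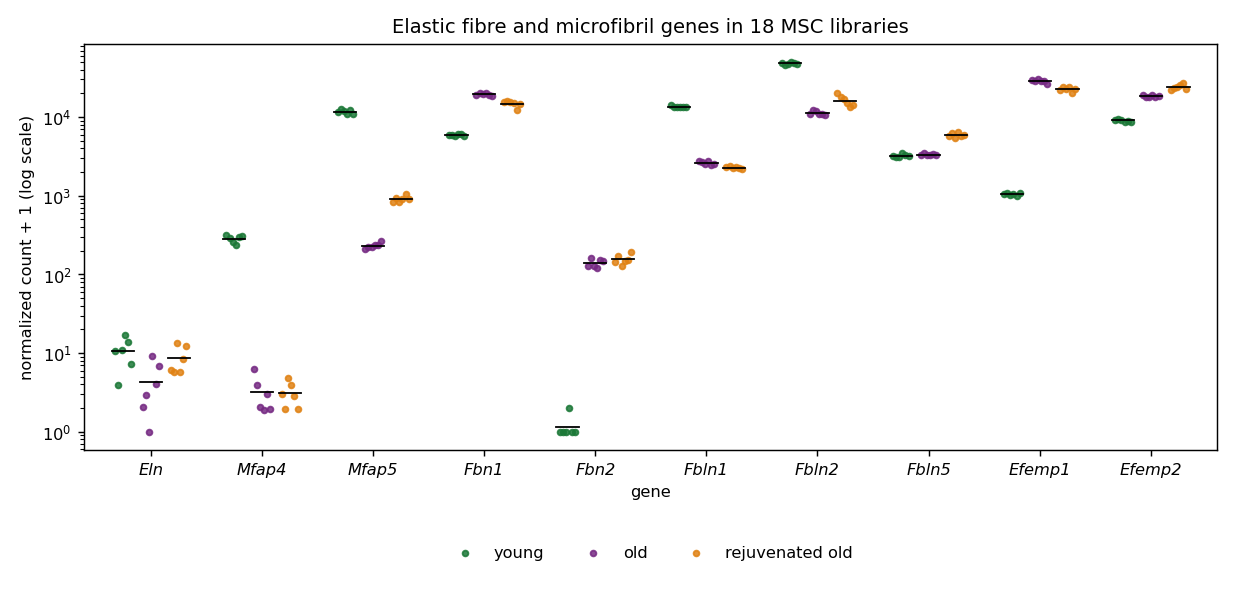
Normalized count plus 1, on a log axis, of the 10 genes in each of the 18 libraries. Points are libraries, colours are groups of 6 and black lines are group means. Efemp1 and Fbn2 are lower in all young libraries than in any other library, Mfap4 and Mfap5 are higher in all young libraries, and Eln has at most 16.2 normalized counts in any library.

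Eln (gene 13717, chr5:134702595-134747368, GRCm38.p6) encodes tropoelastin, the soluble precursor of the elastin core. It had few reads in every group. Young libraries held 2.99 to 16.2 normalized counts (median 9.93), old libraries 0 to 8.18 (median 2.49) and rejuvenated old libraries 4.72 to 12.4 (median 6.30). The 3 ranges overlapped, and the values stand for 55 reads over all young, 21 over all old and 48 over all rejuvenated old libraries. Eln stayed below the minimum of 10 normalized counts and was therefore not tested with the other genes. With no minimum, limma gave a log2 fold change of 1.51 ± 0.46 (SE) for young against old MSCs (adjusted p = 0.00575, with 0.00194 to 0.0235 over alternatives to this fit). For rejuvenated old against old MSCs it gave 1.26 ± 0.46 with an adjusted p of 0.0456, which became 0.0949 with DESeq2 and 0.0965 with edgeR. With a pseudocount of 10 in place of 1 these log2 fold changes were 0.56 and 0.41. The call for rejuvenated old over old was lost in 15 of the 18 fits that left out 1 library, where its adjusted p ran from 0.0180 to 0.142.

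Fbn1 (gene 14118, chr2:125300594-125506485) encodes fibrillin-1, the main strand of microfibrils after birth. Old libraries held 18328 to 20324 normalized counts (median 19474), young libraries 5772 to 6094 (median 5840) and rejuvenated old libraries 12364 to 16164 (median 15153). No 2 groups overlapped, and the rejuvenated old libraries lay between the others. The mean was 3.30 times higher in old than in young MSCs (log2 fold change for young against old -1.72 ± 0.05 SE, adjusted p = 7.34e-20). After co-culture it fell by 0.40 ± 0.05 on the log2 scale (adjusted p = 4.57e-07), and it was still 2.51 times that of young MSCs. Fbn2 (gene 14119, on chromosome 18) encodes fibrillin-2, the fibrillin of embryonic microfibrils. It was at the floor in young MSCs, where 5 libraries had no read and 1 had 1 read, which allows up to 3 reads per library. Old libraries held 119.1 to 161.5 normalized counts (median 138.1) and rejuvenated old libraries 125.6 to 192.4 (median 149.3). The level in old MSCs was thus at least 44.0-fold higher than in young MSCs (adjusted p = 2.28e-20) and that in rejuvenated old MSCs at least 49.0-fold higher. Old and rejuvenated old libraries overlapped (log2 fold change 0.15, 95% confidence interval -0.22 to 0.51, adjusted p = 0.534). Fbn2 was a minor fibrillin throughout. Per kilobase of the longest annotated transcript it had 0.776% ± 0.101 (SD, n = 6) of the level of Fbn1 in old MSCs. In rejuvenated old MSCs it had 1.14% ± 0.21.

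Mfap5 (gene 50530, chr6:122513584-122529290) encodes the microfibril-associated glycoprotein MAGP-2, which binds fibrillins. It was among the most abundant of the 10 transcripts in young MSCs, with 10873 to 12520 normalized counts (median 11751), and fell to 208.6 to 261.7 (median 226.6) in old MSCs. Rejuvenated old libraries held 822.8 to 1040.2 (median 911.8), above every old and below every young library. The mean was 50.8 times higher in young than in old MSCs (log2 fold change 5.66 ± 0.06 SE, adjusted p = 2.4e-27). It was 3.94 times higher in rejuvenated old than in old MSCs (log2 fold change 1.97 ± 0.06, adjusted p = 1.28e-16). Of the 14353 genes tested, 34 (0.237%), Mfap5 included, changed at least as much in that comparison. The level reached 7.76% of the young mean after co-culture, from 1.97% in old MSCs. Mfap4 (gene 76293, chr11:61485431-61488708) encodes a fibrinogen-domain glycoprotein that binds elastin and microfibrils. Young libraries held 232.8 to 312.3 normalized counts (median 292.0), old libraries 0.909 to 5.38 (median 1.54) and rejuvenated old libraries 0.943 to 3.81 (median 1.96). The old and the rejuvenated old values stand for 13 reads over each group, and both groups lay below every young library. The log2 fold change for young against old was 6.61 ± 0.29 (adjusted p = 6.81e-16). Between rejuvenated old and old MSCs it was 0.01, with a 95% confidence interval of -0.58 to 0.61 (adjusted p = 0.979), so a change of either sign within that interval was not detectable at this depth. Mfap4 overlaps Mapk7 on the opposite strand and Efemp2 overlaps Mus81. The strand setting of the counting is not given in the sources used here, but Mapk7 had 1431 to 1537 normalized counts in the old libraries in which Mfap4 had at most 5.38.

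Fbln5 and Efemp2 encode fibulin-5 and fibulin-4, the short fibulins that bind tropoelastin and lysyl oxidases and are needed for elastic fibre assembly. Both were highest in rejuvenated old MSCs. Fbln5 (gene 23876, chr12:101746565-101819119) had 5439 to 6548 normalized counts there (median 5881), against 3270 to 3522 (median 3303) in old and 3091 to 3494 (median 3193) in young libraries. Every rejuvenated old library lay above every other library, while young and old libraries overlapped. The rise over old MSCs was 1.78-fold (log2 fold change 0.83 ± 0.04 SE, adjusted p = 2.35e-13) and that over young MSCs 1.84-fold (0.88 ± 0.04, adjusted p = 1.28e-15). Young against old gave a log2 fold change of -0.05 (95% confidence interval -0.13 to 0.03, adjusted p = 0.248). Genes of chromosome 12 had a median log2 fold change of -0.43 between young and old MSCs relative to all autosomal genes. Once each chromosome was centred on its own median, the value for Fbln5 became 0.42 (adjusted p = 1.12e-09). The rise over young MSCs became 0.41 in the same fit (adjusted p = 2.03e-09). Efemp2 (gene 58859, chr19:5473946-5482520) had 22073 to 27392 normalized counts in rejuvenated old libraries (median 23659), 17822 to 19262 in old (median 18254) and 8644 to 9385 in young libraries (median 9146). No 2 groups overlapped. The mean was 2.03 times higher in old than in young MSCs (log2 fold change for young against old -1.02 ± 0.04, adjusted p = 3.79e-16) and rose a further 1.32-fold after co-culture (0.39 ± 0.04, adjusted p = 1.9e-07). Mus81, which shares its locus, had 757.7 to 1087 normalized counts over all libraries.

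Efemp1 (gene 216616, chr11:28853154-28926743) encodes fibulin-3, a short fibulin of basement membranes and microfibrils that binds TIMP-3. Young libraries held 1005 to 1073 normalized counts (median 1057), old libraries 26567 to 30320 (median 28760) and rejuvenated old libraries 20416 to 23933 (median 22809). No 2 groups overlapped. The mean was 27.5 times higher in old than in young MSCs (log2 fold change for young against old -4.78 ± 0.04 SE, adjusted p = 3.61e-29). It fell by 0.35 ± 0.04 on the log2 scale after co-culture (adjusted p = 1.53e-07) and was then 21.6 times that of young MSCs.

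Fbln1 and Fbln2 encode fibulin-1 and fibulin-2, long fibulins that lie within elastic fibres and at their border and bind fibronectin and basement membrane proteins. Both were high in young MSCs, and co-culture moved them in opposite directions. Fbln1 (gene 14114, chr15:85205949-85286294) had 13272 to 14384 normalized counts in young libraries (median 13545), 2440 to 2786 in old (median 2614) and 2176 to 2353 in rejuvenated old libraries (median 2288). The mean was 5.18 times higher in young than in old MSCs (log2 fold change 2.37 ± 0.03 SE, adjusted p = 6.22e-25) and fell by 0.20 ± 0.03 on the log2 scale after co-culture (adjusted p = 5.49e-05). No 2 groups overlapped. Fbln2 (gene 14115, chr6:91212460-91272540) had 45274 to 49389 normalized counts in young libraries (median 48388), 10743 to 12247 in old (median 10977) and 13257 to 20200 in rejuvenated old libraries (median 15897). The mean was 4.24 times higher in young than in old MSCs (2.09 ± 0.07, adjusted p = 8.12e-18) and 1.43 times higher in rejuvenated old than in old MSCs (0.50 ± 0.07, adjusted p = 7.12e-06). It went from 23.6% to 33.7% of the young mean, while Fbln1 went from 19.3% to 16.8%. The rejuvenated old libraries varied more in Fbln2 (coefficient of variation 16.0%) than the old (6.01%) and the young libraries (3.44%), and again no 2 groups overlapped.

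**Figure D2:**
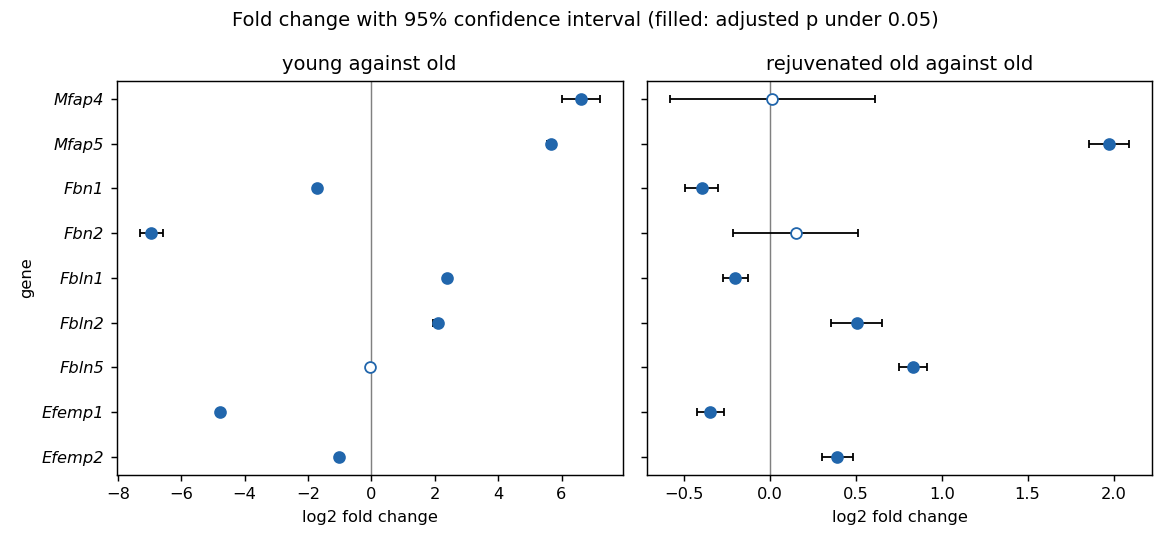
Log2 fold change of the 9 tested genes for young against old MSCs (left) and rejuvenated old against old MSCs (right), from limma on log2(normalized count + 1). Bars are 95% confidence intervals, some narrower than the point, and filled points have an adjusted p under 0.05. The axes differ in scale, and Mfap5 at 1.97 stands apart from the other 8 genes on the right.

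The make-up of the set was compared per kilobase of the longest annotated transcript, since longer transcripts give more reads. In young MSCs Fbln2 led with 10022 normalized counts per kilobase, followed by Mfap5 (4686), Fbln1 (3719) and Efemp2 (3436). Fbln5 (553.8), Efemp1 (514.8) and Fbn1 (492.4) came next, the last 2 of which overlapped, and Mfap4 (159.8) and Eln (2.51) were low. Fibulin and MAGP-2 transcripts thus led the set in young MSCs. In old MSCs the order began with Efemp1 (14133), Efemp2 (6981), Fbln2 (2363) and Fbn1 (1624). Fbln1 (718.3), Fbln5 (572.7) and Mfap5 (92.2) followed, then Fbn2 (12.6), Mfap4 (1.25) and Eln (0.865), with an overlap between the last 2. In rejuvenated old MSCs Efemp1 (11119) and Efemp2 (9189) overlapped, as did Fbn1 (1237) and Fbln5 (1021), which had passed Fbln1 (624.3). Fbln2 (3381) lay between these pairs. Mfap5 stood at 363.6, Fbn2 at 14.0, and Eln (1.98) and Mfap4 (1.18) overlapped.

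Efemp1 took 2.18% ± 0.09 (SD, n = 6) of the summed level per kilobase in young MSCs, 53.3% ± 1.0 in old MSCs and 41.2% ± 1.8 after co-culture. Efemp2 took 14.6% ± 0.4, 26.4% ± 1.0 and 34.1% ± 3.0. Fbln2 fell from 42.5% ± 1.2 in young to 8.92% ± 0.45 in old and stood at 12.5% ± 2.0 in rejuvenated old MSCs. A long fibulin led the set in young MSCs and a short fibulin led it in both groups of old MSCs. The summed level of the set was 23586 ± 464 normalized counts per kilobase in young MSCs, 26499 ± 799 in old MSCs and 26951 ± 822 after co-culture. Ratios within a library do not depend on its size factor. The ratio of Efemp1 to Fbln2, in levels per kilobase, was 0.0514 ± 0.0027 (SD, n = 6) in young MSCs. It was 5.99 ± 0.32 in old MSCs and 3.35 ± 0.48 after co-culture. Per kilobase, the ratio of Efemp1 to Efemp2 was 0.150 ± 0.007, 2.03 ± 0.11 and 1.22 ± 0.13 in the same order. That of Fbln2 to Fbln1, also per kilobase, was 2.70 ± 0.08, 3.30 ± 0.27 and 5.41 ± 0.81. In each of these 3 ratios no 2 groups overlapped.

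**Figure D3:**
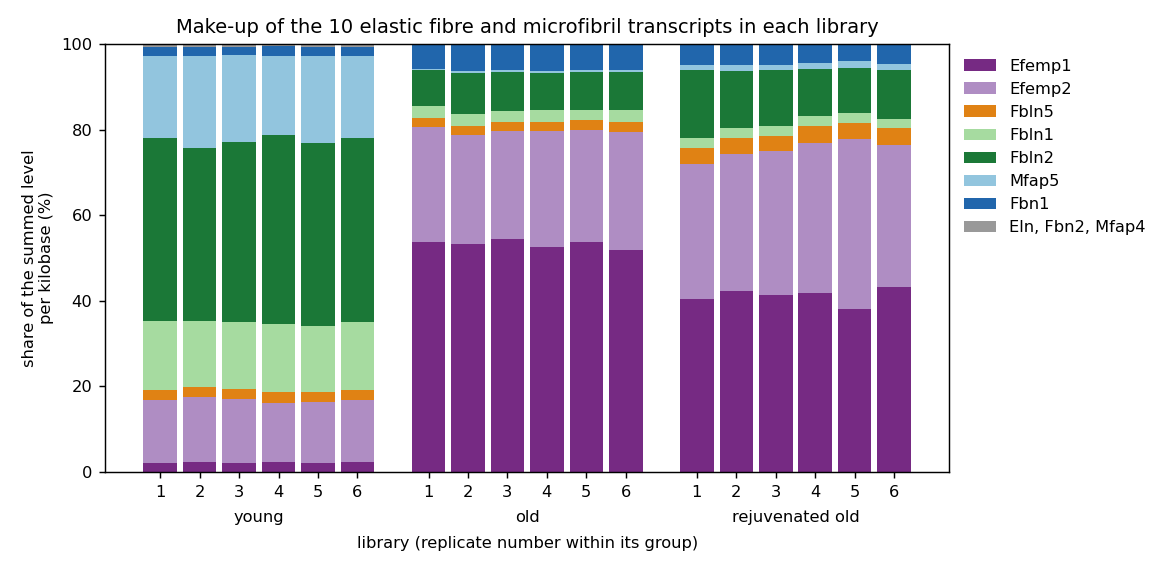
Share of each gene, in percent, of the summed level per kilobase of the 10 genes in each library, with 6 libraries per group. Fbln2, Mfap5 and Fbln1 fill most of each young bar, and Efemp1 and Efemp2 most of each old and rejuvenated old bar. Eln, Fbn2 and Mfap4 together are too small to see in the old and rejuvenated old bars.

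Within groups, the libraries also varied together, as measured by Pearson's r of the deviations from the group means over 18 libraries, which share depth and handling within a library. F2r (r = 0.95), Sparc (r = 0.94) and Rpn2 (r = 0.92) were the genes most like Fbn1, with 0.83, 0.85 and 0.86 once 2 libraries were left out. Sparc encodes a collagen-binding matrix protein, F2r a thrombin receptor and Rpn2 a subunit of the enzyme that adds N-glycans. Among the set itself, Fbln2 (r = 0.77) and Efemp1 (r = 0.64) deviated with Fbn1, and Efemp2 (r = -0.64) and Mfap5 (r = -0.59) deviated against it. Rejuvenated old replicate 5 had the lowest Fbn1, Fbln2 and Efemp1 and the highest Efemp2 and Mfap5 of its group. The r values within the set were not recomputed with libraries left out. The genes most like Eln were Med24 (r = 0.80), Snora43 (r = 0.78) and Dnah6 (r = 0.77), and at the few reads of Eln these values are no finding. All of these r values are descriptions with no test.

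The wider elastic fibre system was followed through 5 further lists of 55 genes, of which 44 were tested. In rejuvenated old against old MSCs 8 were higher, 23 were lower and 13 did not pass the test, beside 21% higher and 20.6% lower of all genes tested. In young against old MSCs 17 were higher and 27 lower, beside 41.6% and 44.1% of all genes, and with 85.7% of all genes called nothing is read from all 44 being called. Accessory proteins of the fibre went both ways after co-culture, with 5 higher and 6 lower of 16 tested and a median log2 fold change of -0.13, against 0.01 for all genes. Mfap2, which encodes MAGP-1, the sister protein of MAGP-2, rose from 223.5 ± 25.5 to 456.0 ± 63.6 normalized counts (SD, n = 6, log2 fold change 1.02, adjusted p = 2.12e-09), below the 852.2 ± 41.9 of young MSCs. Adamtsl3, of the ADAMTS-like family of matrix glycoproteins, rose by 0.89 on the log2 scale (adjusted p = 1.23e-08). Its mean went from 251.0 to 464.0 normalized counts, away from the 142.7 of young MSCs. The latent TGF-β binding proteins Ltbp1 and Ltbp4, which tie TGF-β to microfibrils, were lower, with a log2 fold change of -0.77 for Ltbp1 (adjusted p = 7.09e-10) and -0.46 for Ltbp4 (adjusted p = 0.00212). Between young and old MSCs 9 were higher and 7 lower. Fbln7 (3.33) and Tnxb (3.27), a fibulin and a tenascin, were highest relative to old MSCs, and Thsd4 (-4.52) and Adamtsl4 (-3.32), both of the ADAMTS-like family, were lowest.

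Lysyl oxidases cross-link elastin and collagen, and their list also holds the genes that activate them. After co-culture 2 were higher and 3 lower of 7 tested, beside 21% and 20.6% of all genes. Lox went from 36326 to 48208 normalized counts (log2 fold change 0.41, adjusted p = 2.55e-06) and Loxl2 from 5530 to 8222 (0.57, adjusted p = 5.63e-12). Young MSCs held 45923 of Lox and 2313 of Loxl2, so Loxl2 moved away from young. Loxl4 (-0.38) and the copper transporter gene Atp7a (-0.46), which loads lysyl oxidases with copper, fell. Against old MSCs, young MSCs had less Loxl1 (-2.34) and Loxl3 (-1.85) and more Loxl4 (1.38) and Atp7a (0.38), with 3 higher and 4 lower in all. No elastin-degrading protease rose after co-culture, and 3 of 7 fell, beside 20.6% of all genes, among them Mmp14 (-0.39, adjusted p = 3.08e-10). Mmp9, with 30.9 ± 7.6 normalized counts in old and 21.7 ± 6.1 in rejuvenated old MSCs, was also called (-0.50, adjusted p = 0.0245), but not without old replicate 3 or 4 or without rejuvenated old replicate 3 or 4 (adjusted p from 0.0567 to 0.0701). Mmp12, the macrophage elastase, had 670.9 ± 26.7 normalized counts in old MSCs against 0.695 ± 0.846 in young MSCs (adjusted p = 9.67e-21), and Ctss had 722.3 ± 38.4 against 10.4 ± 6.5 (adjusted p = 2.77e-17). Macrophages are known for both, and the macrophage markers above separated the same groups. Young MSCs also had less Mmp2 (-4.94), Ctsk (-5.09) and Mmp14 (-1.19) than old MSCs. Which cells made these protease transcripts was not tested. Ctsl (0.79) and Mmp9 (2.96) were the 2 of 7 proteases that were higher in young MSCs.

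In the list of cell receptors for fibrillin and elastin, 8 of 10 genes were called lower after co-culture, beside 20.6% of all genes. The rest did not pass the test, and the median log2 fold change was -0.23, against 0.01 for all genes. Besides integrin chains the list holds Glb1, Neu1 and Ctsa, of which Neu1 (-0.40) and Ctsa (-0.11) were called lower. Counts per gene do not separate the transcript forms of a gene such as Glb1. Itga8, an integrin chain that binds RGD ligands, fell from 62.1 ± 6.4 to 32.7 ± 4.7 normalized counts (-0.91, adjusted p = 4e-07). Itgb8, which pairs with αv to activate TGF-β, fell by 0.66 on the log2 scale from 26.2 ± 7.9 normalized counts (adjusted p = 0.0306). Its adjusted p was 0.0676 without old replicate 2, 0.0839 without old replicate 6, 0.0828 without rejuvenated old replicate 4 and 0.0858 without rejuvenated old replicate 5. Young against old MSCs gave 3 higher and 7 lower receptors, with Itga8 (2.38) and Neu1 (0.60), the sialidase of the elastin receptor complex, higher and Itgb5 (-0.68) and Itgav (-0.62) lower, although Itgb5 changed sign to 0.069 with chromosomes centred (adjusted p = 0.0609). Of the growth factors that microfibrils hold, 4 were tested. Bmp4 rose from 2532 ± 106 normalized counts in old to 9082 ± 1466 in rejuvenated old MSCs (1.83, adjusted p = 3.3e-14), while young MSCs held 625.1 ± 44.2. Tgfb2 (-0.60, adjusted p = 2.45e-08) and Tgfb3 (-0.27, adjusted p = 1.3e-06) fell after co-culture. All 4 were lower in young than in old MSCs, beside 44.1% of all genes, with Tgfb2 (-2.18) and Bmp4 (-2.02) furthest.

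**Figure D4:**
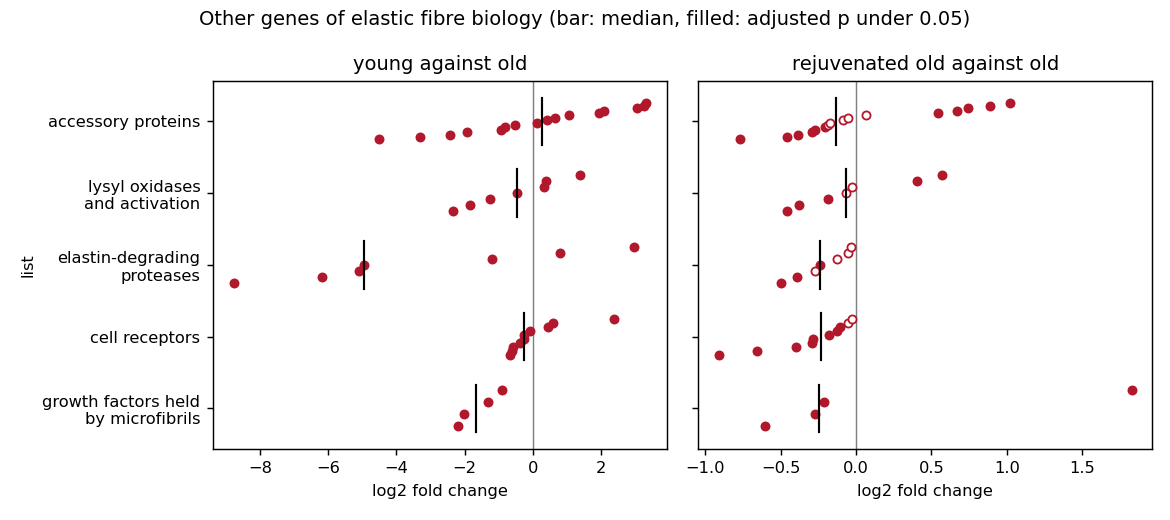
Log2 fold change of the 44 tested genes of 5 elastic fibre lists for young against old MSCs (left) and rejuvenated old against old MSCs (right). Points are genes, filled where the adjusted p is under 0.05, and bars are list medians. The axes differ in scale, and on the right 8 of 10 genes of the cell receptor list are filled and below 0 while Bmp4 lies at 1.83.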

How the data were processed

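RNA from 6 young, 6 old and 6 rejuvenated old MSC cultures was sequenced after poly(A) selection with a stranded kit. Per the paper's methods, the authors aligned reads to mm10 with HISAT2, quantified them with StringTie and featureCounts and normalized them with DESeq2 in Galaxy. Versions, gene annotation and strand setting are not given in the sources used here. The deposited signal per gene is its read count over 1 size factor per library. Every value was a whole multiple of 1 step per library (100% within 0.01 of a read), which gave back reads for the count tests and the floor of 3 reads. At this depth, genes under about 10 reads per library are limited by counting error.

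Computed here were limma 3.58.1 tests (R 4.3.3) on log2(value + 1), with 1 mean per group, a prior variance that follows the mean, genes with a mean of at least 10, and Benjamini-Hochberg adjustment over 14353 genes, checked on simulated data. Levels per kilobase used the longest GENCODE transcript (GRCm38). DESeq2 1.42.0, edgeR 4.0.16, other pseudocounts, filters and scalings, chromosome centring, a replicate block and leaving out each library were alternatives. Python 3.11.15, pandas 2.3.3, numpy 2.4.6 and matplotlib 3.10.9 did the rest. All 10 genes are named, as are up to 2 genes per list, direction and comparison with the largest called change, and the 3 genes most like Eln and Fbn1. The remaining proteases with less signal in young MSCs are named as well, and their values there were not put through the alternatives. The genes and lists were chosen with earlier results of these data known.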

Additional observations from a re-analysis of the deposited data

Results flagged for a closer look

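Of the 30 groups of 6 libraries, 1 for each of the 10 genes in each group, 3 had a library whose gap to the nearest other library exceeded the 95% critical value of Dixon's test, and chance alone flags about 1 in 20 such groups. Young replicate 4 had 1.01 normalized counts of Fbn2, which is 1 read, where the 5 other young libraries had none. Young replicate 1 had 14384 normalized counts of Fbln1, where the other young libraries had 13272 to 13588. Old replicate 2 had 3522 normalized counts of Fbln5, where the other old libraries had 3270 to 3355. No call of these genes changed when each of these libraries was left out.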

How the results depend on the processing

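Over the 27 combinations of the 9 tested genes and 3 comparisons, 825 of 837 alternative values kept their direction and their side of the threshold, and 12 changed sign, in 2 log2 fold changes near 0 that were not called. Mfap4 for rejuvenated old against old MSCs (0.01) became -0.0091 with a pseudocount of 10, -0.070 with quantile normalization, -0.062 with DESeq2 and -0.056 with edgeR, and ran from -0.13 to 0.24 with 1 library left out, never called. Fbln5 for young against old MSCs (-0.05) became 0.025 with the same total per library, not called, and 0.42, called, with chromosomes centred. The count of genes called in rejuvenated old against old MSCs fell from 7 to 1, Mfap5, when log2 fold changes of 1 or more in size were required. That limit also cut the counts of the 5 further lists to 2 higher and 0 lower in rejuvenated old against old MSCs, 9 and 15 in young against old, and 15 and 8 in rejuvenated old against young MSCs. Alternatives for the lists, and those for Eln without a minimum, were chosen after seeing the data. Leaving out 1 library at a time kept the counts of the 9 genes at 7, 8 and 9. Replicate numbers did not pair the samples (r from -0.152 to 0.0736 over 18 pairs), and with a replicate block the counts were 7, 8 and 9 again, while calls over all genes in rejuvenated old against old MSCs went from 5971 to 5769. Of 1022 alternative values for named list genes, 12 lost their call, all of Mmp9 or Itgb8. Itgb5 for young against old changed sign (0.069) when chromosomes were centred. Relative to the median of all autosomes, chromosome medians for young against old ran from -0.72 (chromosome 16) to 0.64 (chromosome 7). The cause of these chromosome shifts was not tested. Depth limits Eln, Mfap4 in old and rejuvenated old MSCs, and Fbn2 in young MSCs.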
